A study of Homo sapiens with 8 samples.

Results

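The genes described here encode the subunits of the respiratory chain and of ATP synthase, in OVISE, a cell line established from an ovarian clear cell carcinoma. They were all loci of the deposited expression table whose accessions map to a single protein-coding symbol starting NDUFA, NDUFB, NDUFC, NDUFS, NDUFV, SDHA, SDHB, SDHC, SDHD, UQCR, COX4, COX5, COX6, COX7, COX8 or ATP5. The rule gave 93 genes of 27757 loci: 81 code for subunits or for the inhibitor of ATP synthase, and 12 are assembly factors whose symbols begin with the same letters (NDUFAF1 to NDUFAF8 and SDHAF1 to SDHAF4). By complex they were 36 subunit genes of complex I, 4 of complex II, 9 of complex III, 16 of complex IV and 16 of complex V. Cells of the line in which SYK, a non-receptor tyrosine kinase, had been knocked out with a Cas9 nickase and a pair of guides against exon 2 (SYK-KO) were set against cells with intact SYK (SYK-WT). Epidermal growth factor (EGF), which activates the receptor EGFR, was given at 50 ng/ml for 24 h to both genotypes, which were also left untreated, with 2 libraries in each of 4 groups (SYK-KO EGF, SYK-KO, SYK-WT EGF and SYK-WT). Single-cell clones were isolated after puromycin selection, but the number of clones behind the SYK-KO libraries is not given, nor is the origin (clone or parental line) of the SYK-WT cells. A difference between the genotypes therefore cannot be told apart from a difference between clones, and since separate cultures are not stated for the libraries of a group, the spread behind every p-value may be technical.

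Electrons from NADH enter the respiratory chain through complex I and those from succinate through complex II. They pass by coenzyme Q to complex III, by cytochrome c to complex IV, and there to oxygen. Complexes I, III and IV pump protons out of the mitochondrial matrix, and ATP synthase (complex V) uses their return to make ATP. Most subunits are encoded in the nucleus. Most of those counted here as core carry the redox centres or catalytic sites, while the supernumerary ones surround the core. The subunits encoded by mitochondrial DNA are not analysed here.

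The unit was FPKM, fragments scaled by transcript length and library size, and 86 of the 93 genes passed the filter (1 FPKM or more in 2 or more libraries) and entered the fit of 12112 loci. SYK transcript was present in every library and lower in the knockout, with 3.11 and 3.43 FPKM in SYK-KO cells, against 4.91 and 5.30 FPKM in SYK-WT cells, and with 2.80 and 3.16 FPKM in SYK-KO EGF cells, against 3.88 and 3.62 FPKM in SYK-WT EGF cells. Of the markers of clear cell carcinoma, PAX8 (148 to 234 FPKM), KRT7 and EPCAM were present in all 8 libraries, while CDH1 fell in SYK-KO cells in both comparisons and NAPSA was at 0.787 to 1.26 FPKM in the SYK-KO and SYK-KO EGF libraries, against 4.16 to 5.37 FPKM in the SYK-WT EGF and SYK-WT libraries. Markers of T cells, fibroblasts and endothelium (CD3E, DCN, PDGFRB, PECAM1 and CDH5) were at or near 0, as was the leukocyte marker PTPRC, but CD68 and LAPTM5 were expressed and moved with the groups. CD68 rose with EGF in SYK-KO (log2 fold change 0.92) and SYK-WT cells (1.35) and was higher in untreated SYK-KO cells (0.35), and LAPTM5 rose with EGF in SYK-KO cells (0.76) and was lower in untreated SYK-KO cells (-0.49). Their part in the results was not tested. The estimated depth was 23440000 to 26920000 fragments a library. The untreated SYK-WT pair was the least alike: the median absolute difference between its libraries over the tested members was 0.126 on the log2(FPKM + 1) scale, against 0.0672 to 0.0853 in the other groups. FPKM are shares of a library, so that fewer transcripts per cell and fewer expressing cells cannot be told apart.

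Most subunit genes were abundant. Within its complex, the mean over the 8 libraries was highest for COX7C, a small subunit of complex IV, at 710.5 FPKM, for ATP5F1B, the catalytic beta subunit of complex V, at 405 FPKM, and for NDUFB4, a membrane-arm subunit of complex I, at 332 FPKM. In complexes III and II the highest means were those of UQCRFS1, the Rieske iron-sulfur protein, at 169.6 FPKM, and of SDHB, the iron-sulfur subunit of succinate dehydrogenase, at 64.7 FPKM. The lowest among tested subunits were NDUFA5 of complex I at 9.41 FPKM, COX7A1 of complex IV at 20.2 FPKM, UQCRB of complex III at 33.3 FPKM, SDHC of complex II at 41.8 FPKM and ATP5PB of complex V at 63.1 FPKM. The isoforms known from other tissues were silent or nearly so: COX6A2, the muscle form of subunit 6A, and COX7B2 were listed at 0 in every library, COX4I2, the lung form of subunit 4, reached at most 0.0656 FPKM, and COX6B2, the testis form of subunit 6B, at most 0.424 FPKM. The ubiquitous forms COX4I1 and COX6A1 lay between 397 and 499 FPKM throughout. COX7A1 was the exception among the tissue isoforms. UQCRH and UQCRHL, near-identical copies of the complex III hinge protein, were listed at no more than 0.27 FPKM each, a value that is uncertain because reads of such copies can be lost or split. ATP5MGL was the other gene below the filter. NDUFA4 is listed as COXFA4 in the gene table used and so lies outside the rule. It held 61.9 to 72.3 FPKM and passed in no comparison. CYC1, the cytochrome c1 of complex III, lies outside the rule as well and passed in no comparison. Its log2 fold change in SYK-KO against SYK-WT cells was -0.22 untreated and -0.24 with EGF. NDUFC2, COX8C, ATP5F1E, ATP5MF and ATP5MK were left out because their loci were merged with other symbols. The counts by complex therefore do not cover every nuclear subunit.

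Loss of SYK went with higher levels of many of these genes in untreated cells. Of the 86 members tested, 36 were higher and 6 lower in SYK-KO than in SYK-WT cells (limma, Benjamini-Hochberg adjusted p under 0.05 over all loci). Over all loci the shares were 20.3% higher and 20.2% lower, against 41.9% and 6.98% of the members. The median log2 fold change on the log2(FPKM + 1) scale was 0.16 over the members and -0.01 over all loci. Most changes were small: of the 36, 8 are described below with a log2 difference of 0.50 or more, and COX7A1 and NDUFC1 exceeded 1. The counts moved with the libraries in the fit. The shares over all loci under these alternatives are not given, so the counts that follow cannot be set against the shares above. With only the 2 groups compared they were 16 higher and 2 lower, without SYK-KO replicate 1 they were 11 and 1, and without SYK-KO replicate 2 they were 25 and 3. By q under 0.05 in the authors' deposited table, 14 of the 86 members passed, all of them among the 42 called here. This is a smaller share than the 21.5% of all loci tested that passed there in either direction.

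**Figure D1:**
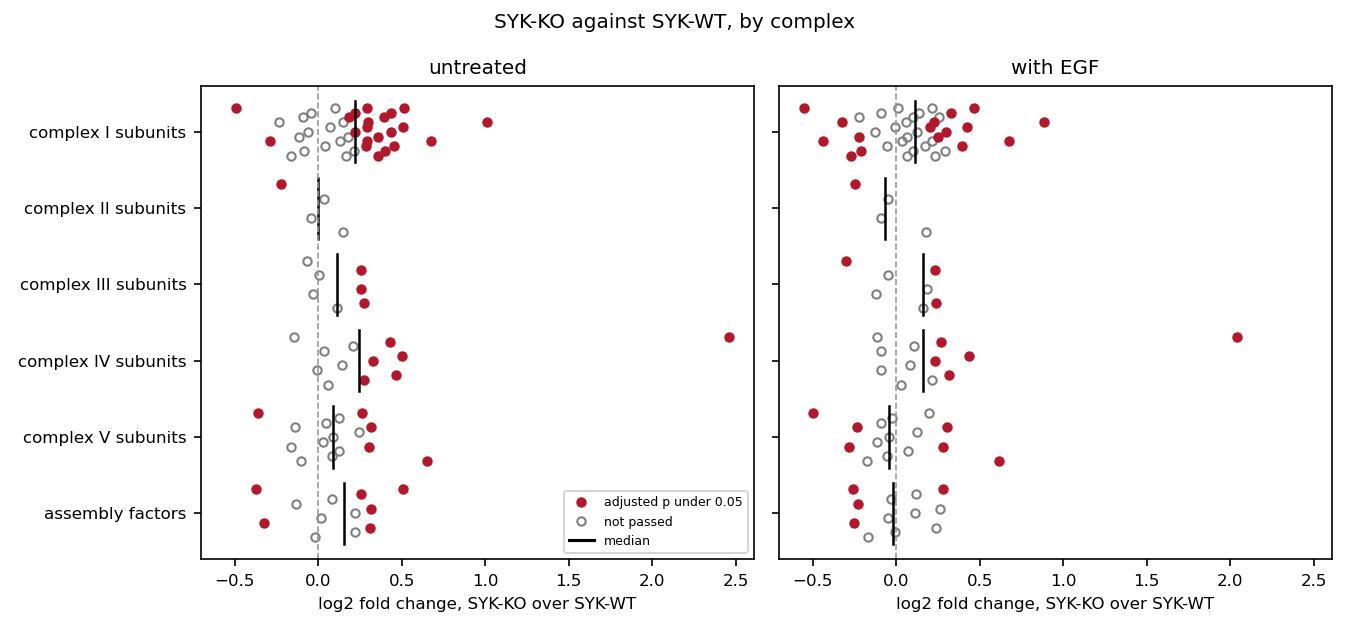
Log2 fold change of SYK-KO over SYK-WT cells on the log2(FPKM + 1) scale (x axis) for the 86 tested genes by complex (y axis), untreated on the left and with EGF on the right. Each point is a gene, filled where the limma adjusted p is under 0.05, and bars are medians. Untreated, filled points lie mostly right of 0, with COX7A1 at 2.46, and with EGF more lie left of 0.

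With EGF present in both genotypes, 21 members were higher and 14 lower in SYK-KO EGF than in SYK-WT EGF cells. The shares over all loci were 21.1% higher and 22.5% lower, so that the members' 24.4% and 16.3% lay nearer to the background than in untreated cells. The median log2 fold change was 0.08 over the members and -0.02 over all loci. All 21 of the genes higher here were also higher in untreated cells, 6 were lower in both, and 0 were called in opposite directions. 15 genes passed only in untreated cells and 8 only with EGF, which by itself does not show that they differ between the treatments. The count moved to 31 higher and 15 lower with only the 2 groups in the fit. For this and the following alternatives the shares over all loci are not given, and those above belong to the main fit. Omitting SYK-KO EGF replicate 1 gave 9 and 4 and omitting its replicate 2 gave 13 and 5. Omitting SYK-WT EGF replicate 1 gave 10 and 2 and omitting its replicate 2 gave 8 and 7. The omission of either untreated SYK-KO library gave 18 and 9, and of either untreated SYK-WT library 31 and 15. By q under 0.05 in the authors' deposited table, 8 of the 86 members passed, all among the 35 called here. This is a smaller share than the 24.0% of all loci that passed there in either direction. The 2 comparisons share no library, and across the 86 genes their log2 fold changes had a Spearman correlation of 0.909. Genes are not independent replicates, and both comparisons set the same cell populations against each other.

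**Figure D2:**
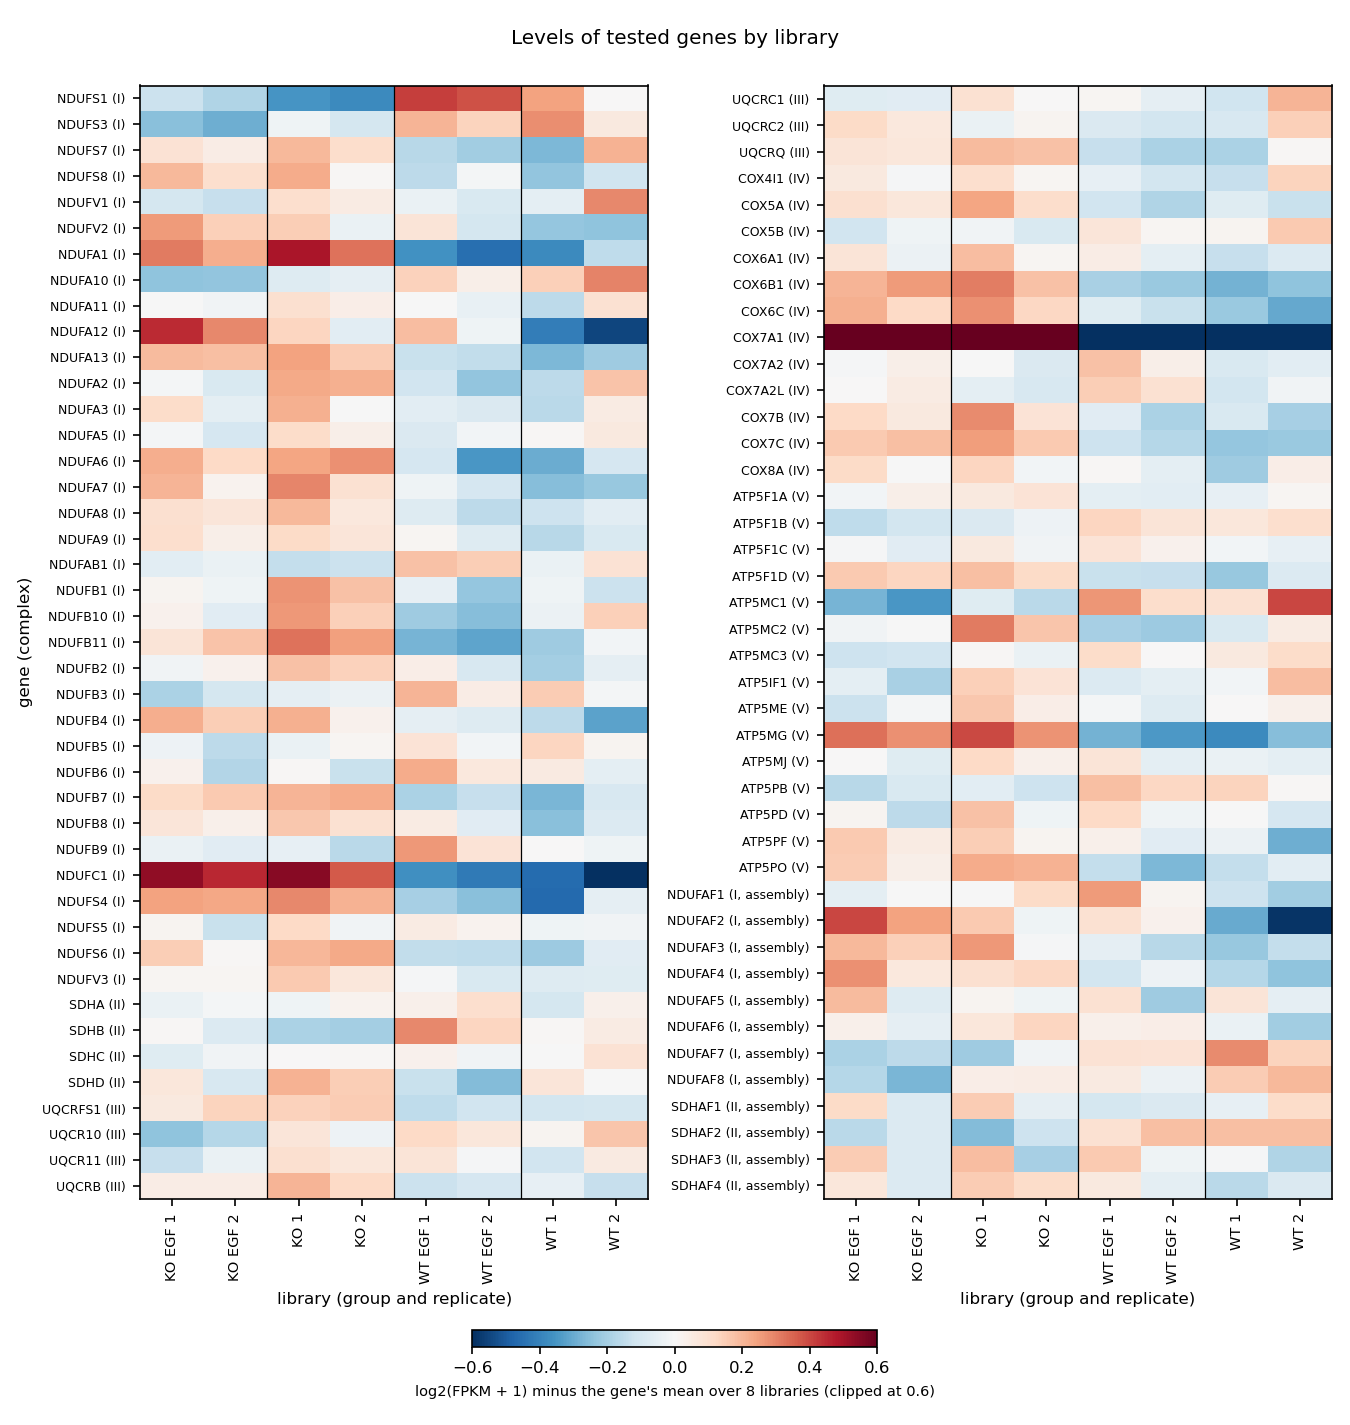
Level of tested genes (rows, with their complex) in each of the 8 libraries (columns), as log2(FPKM + 1) minus the gene's mean over the libraries, with colours clipped at 0.6 in either direction. The SYK-KO EGF and SYK-KO columns on the left share their colour in the rows of COX7A1, NDUFC1, NDUFA1 and ATP5MG (red) and NDUFS1 and ATP5MC1 (blue), and the 4 SYK-WT EGF and SYK-WT columns have the other colour in the first 4 of these rows.

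Complex by complex, the shares of higher genes in untreated SYK-KO cells were 52.8% in complex I, 50.0% in complex IV, 42.9% in complex III and 26.7% in complex V, beside 20.3% of all loci. Of the 36 complex I subunit genes 19 were higher and 2 lower, of the 12 tested in complex IV 6 were higher and 0 lower, of the 7 in complex III 3 were higher and 0 lower, of the 15 in complex V 4 were higher and 1 lower, and of the 4 in complex II 0 were higher and 1 lower. Median log2 fold changes were 0.22 for complex I, 0.24 for complex IV, 0.11 for complex III, 0.09 for complex V and -0.0032 for complex II. Summed over its 36 subunit genes, complex I held 4493 and 4199 FPKM in SYK-KO cells, against 3561 and 3764 FPKM in SYK-WT cells. The 12 genes of complex IV held 4063 and 3729 FPKM in SYK-KO cells, against 3177 and 3359.9 FPKM in SYK-WT cells. Complex III held 576 and 566 FPKM in SYK-KO cells, against 500 and 549 FPKM in SYK-WT cells. Complex V held 3021 and 2860 FPKM in SYK-KO cells, against 2691 and 2794 FPKM in SYK-WT cells. Complex II held 193 and 192 FPKM in SYK-KO cells, against 194 and 200.2 FPKM in SYK-WT cells. The sums of every complex were separate between these groups, lower in SYK-KO cells in complex II and higher in the others. With 2 libraries a group this separation is weak, and its share over other loci is not given. With EGF, 10 complex I subunit genes were higher and 6 lower, 5 of complex IV were higher and 0 lower, 2 of complex III were higher and 1 lower, 3 of complex V were higher and 3 lower, and 1 of complex II was lower. The shares of higher genes were then 27.8% in complex I, 41.7% in complex IV and 20% in complex V, beside 21.1% of all loci, so that complexes I and V lay near the background. Within complex I, 17 of the 29 supernumerary subunits were higher (58.6%) and 1 lower in untreated SYK-KO cells. Among the 7 core subunits 2 were higher (28.6%) and 1 lower. The supernumerary subunits are also the larger set. These subdivisions were made with the results known, and no difference between them was tested.

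COX7A1, the muscle isoform of complex IV subunit 7A (hg19 chr19:36641824-36643771), showed the largest change of all members in both SYK-KO comparisons. It held 40.1 and 30.0 FPKM in SYK-KO cells, against 5.41 and 5.58 FPKM in SYK-WT cells, and 33.1 and 32.9 FPKM in SYK-KO EGF cells, against 6.97 and 7.58 FPKM in SYK-WT EGF cells. Every SYK-KO library lay above every SYK-WT library, and the means differed 6.38-fold untreated and 4.53-fold with EGF. The log2 fold change was 2.46 ± 0.12 untreated (SE, 2 libraries a group; limma adjusted p = 1.27e-05) and 2.04 ± 0.12 with EGF (limma adjusted p = 2.98e-05). The calls were kept under every alternative setting tried, with log2 fold changes from 1.99 to 2.66. The deposited table of the authors gave q = 0.000583 for it in both comparisons.

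Its ubiquitous counterpart COX7A2 did not pass in either comparison. COX7A2 held 220.1 and 208 FPKM in SYK-KO cells, against 207 and 211 FPKM in SYK-WT cells, with a log2 fold change of 0.03 (95% interval -0.12 to 0.19), and -0.09 (-0.25 to 0.07) with EGF. COX7A1 therefore made up 15.4% and 12.6% of the summed FPKM of both genes in SYK-KO cells, against 2.55% and 2.58% in SYK-WT cells, and 13.1% and 12.7% in SYK-KO EGF cells, against 2.72% and 3.24% in SYK-WT EGF cells. COX7A2L, a related protein that joins complexes III and IV, did not pass either (log2 fold change -0.0099 untreated and -0.09 with EGF).

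**Figure D3:**
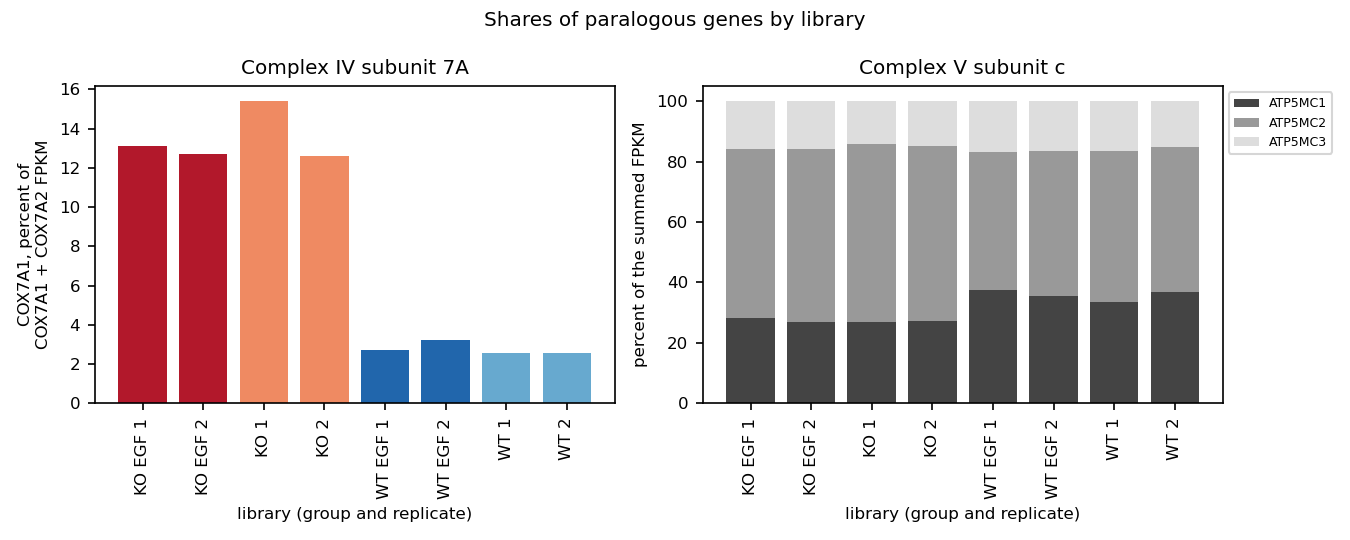
Left, COX7A1 as a percentage of the summed FPKM of COX7A1 and COX7A2 (y axis) in each library (x axis). Right, the percentages of the summed FPKM held by the genes of the c subunit of ATP synthase in the same libraries. The 4 SYK-KO EGF and SYK-KO bars on the left stand at 12.6% to 15.4% and the 4 SYK-WT EGF and SYK-WT bars at 2.55% to 3.24%.

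Other complex IV subunits rose by less. COX6B1, which links the monomers of the complex on the intermembrane side, held 608 and 555 FPKM in SYK-KO cells, against 404 and 416 FPKM in SYK-WT cells (log2 fold change 0.50 ± 0.066, limma adjusted p = 0.00105). With EGF it held 565 and 586 FPKM in SYK-KO EGF cells, against 429.9 and 421 FPKM in SYK-WT EGF cells (0.44 ± 0.066, limma adjusted p = 0.00184). COX7C rose in both comparisons (0.43 and 0.32), as did COX5A, the subunit next to COX4I1 in assembly (0.27 and 0.23), while COX7B passed untreated alone (0.33). COX6C, named after its values were seen, was also higher in both comparisons. It held 181 and 163 FPKM in SYK-KO cells, against 128 and 121 FPKM in SYK-WT cells. With EGF it held 174 and 163 FPKM in SYK-KO EGF cells, against 143 and 136 FPKM in SYK-WT EGF cells. COX4I1, COX5B, COX6A1 and COX8A passed in neither comparison, with log2 fold changes from -0.14 to 0.21.

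In complex I, NDUFC1 and NDUFA1, small supernumerary subunits of the membrane arm, rose most. NDUFC1 held 63.2 and 55.8 FPKM in SYK-KO cells, against 30.9 and 27.3 FPKM in SYK-WT cells, a 2.05-fold difference of the means (log2 fold change 1.01 ± 0.087, limma adjusted p = 0.000157). With EGF it held 62.5 and 59.1 FPKM in SYK-KO EGF cells, against 33.2 and 31.8 FPKM in SYK-WT EGF cells (0.89 ± 0.087, limma adjusted p = 0.000285). Its listed locus also holds NAA15, which did not pass (0.18 untreated and 0.19 with EGF). NDUFA1, an X-linked subunit needed for assembly of the membrane arm, held 259 and 231 FPKM in SYK-KO cells, against 141 and 165 FPKM in SYK-WT cells. With EGF it held 229 and 214 FPKM in SYK-KO EGF cells, against 143 and 134 FPKM in SYK-WT EGF cells. The log2 fold changes were 0.68 and 0.67 (both ± 0.095; limma adjusted p = 0.00136 and 0.00134). RNF113A, an overlapping entry at the same locus, rose with it (0.60 and 0.51), and since the strand of the reads is not given, reads of the pair may not be separable. NDUFS4, an accessory subunit of the NADH-oxidising end, rose by 0.51 and 0.46, NDUFB11, a membrane-arm subunit, by 0.40 and 0.42, and NDUFA6, a LYR-motif subunit near the quinone site, by 0.45 and 0.39. The NDUFS4 call did not hold with only the 2 groups in the fit for untreated cells (limma adjusted p = 0.0584), and its call with EGF ended without any one of the 4 EGF-treated libraries (0.0637 to 0.0889). That of NDUFA6 with EGF ended without SYK-WT EGF replicate 2 (0.108) or SYK-KO EGF replicate 1 (0.0951).

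NDUFS1, the largest core subunit, which carries iron-sulfur clusters of the electron path from NADH, went the other way. It held 17.0 and 16.6 FPKM in SYK-KO cells, against 26.2 and 22.0 FPKM in SYK-WT cells, and 20.02 and 19.3 FPKM in SYK-KO EGF cells, against 29.6 and 28.9 FPKM in SYK-WT EGF cells. Both pairs of groups were separate. The log2 fold change was -0.49 ± 0.084 untreated (limma adjusted p = 0.00333) and -0.55 ± 0.084 with EGF (limma adjusted p = 0.00188), and both calls were kept under every alternative setting. NDUFA10, a supernumerary subunit of the membrane arm, fell in both (-0.29 and -0.32), a call that without SYK-KO replicate 1 or 2 was lost in untreated cells (limma adjusted p = 0.0991 and 0.0763). With EGF it was lost without SYK-WT EGF replicate 1 or SYK-KO EGF replicate 1 (0.0757 and 0.0539). NDUFS3, a core subunit next to the quinone site, fell with EGF (-0.44 ± 0.083, limma adjusted p = 0.00438), where it held 32.7 and 31.8 FPKM in SYK-KO EGF cells, against 45.2 and 43.0 FPKM in SYK-WT EGF cells. It did not pass untreated (-0.23, limma adjusted p = 0.0532). KBTBD4, another gene at its listed locus, was lower too with EGF (-0.72), and PTPMT1, the third gene there, did not pass (0.27). NDUFB3 also fell with EGF (-0.27), a call lost under 6 of the alternative settings (limma adjusted p up to 0.19 without SYK-WT EGF replicate 1). NDUFV1, the core subunit that binds NADH and FMN, passed in neither comparison (-0.04 and -0.06).

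**Figure D4:**
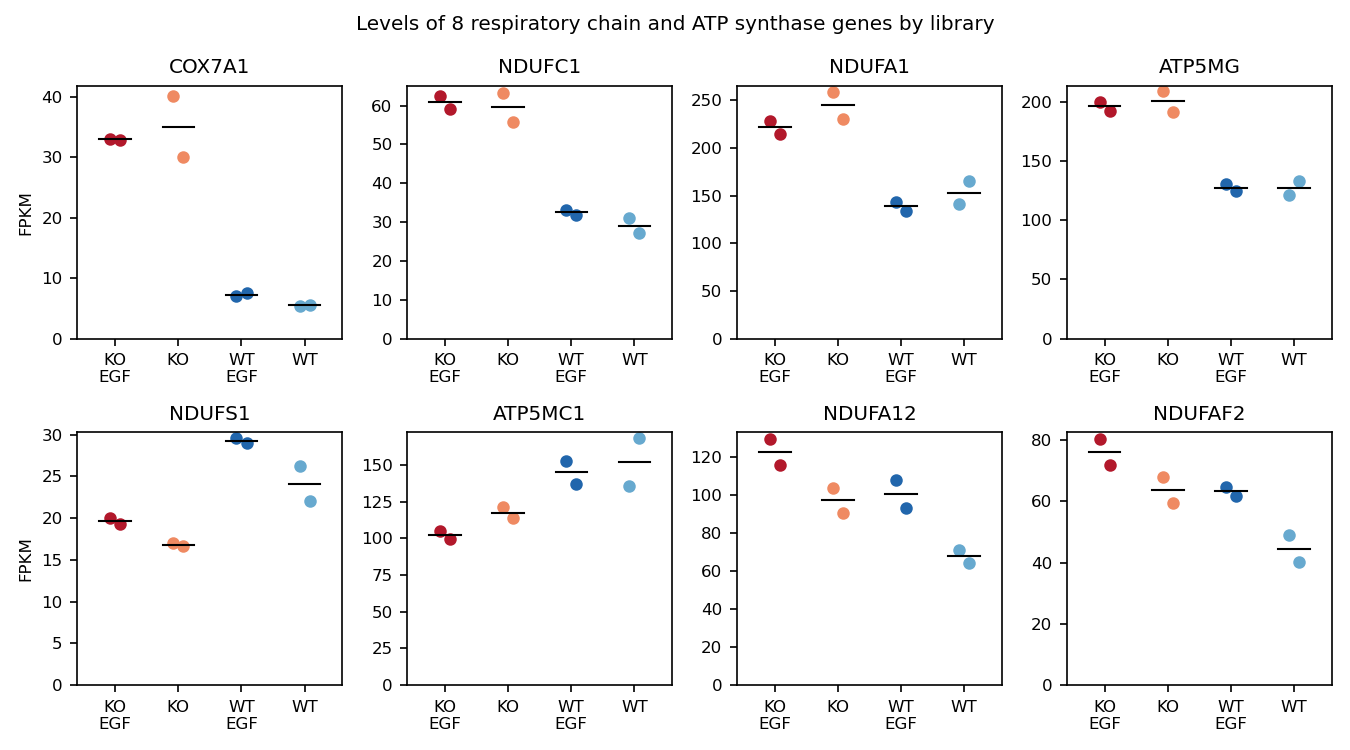
FPKM (y axis, from 0) of 8 genes in each library (points) with the group mean (line), for the groups SYK-KO EGF, SYK-KO, SYK-WT EGF and SYK-WT. COX7A1, NDUFC1, NDUFA1 and ATP5MG are higher in all SYK-KO libraries, NDUFS1 and ATP5MC1 are lower there, and NDUFA12 and NDUFAF2 are lowest in untreated SYK-WT cells.

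In ATP synthase, ATP5MG, subunit g of the membrane part, rose most. It held 209.5 and 192 FPKM in SYK-KO cells, against 122 and 133 FPKM in SYK-WT cells (0.65 ± 0.072, limma adjusted p = 0.000488). With EGF it held 200.5 and 193 FPKM in SYK-KO EGF cells, against 131 and 125 FPKM in SYK-WT EGF cells (0.62 ± 0.072, limma adjusted p = 0.000587), and UBE4A at the same listed locus did not pass. The ring that turns in the membrane is made of c subunits, identical once imported but encoded by ATP5MC1, ATP5MC2 and ATP5MC3. ATP5MC1 held 121 and 114 FPKM in SYK-KO cells, against 136 and 169 FPKM in SYK-WT cells, and 105 and 99.7 FPKM in SYK-KO EGF cells, against 153 and 137 FPKM in SYK-WT EGF cells. Its log2 fold change was -0.36 ± 0.11 untreated (limma adjusted p = 0.0288) and -0.50 ± 0.11 with EGF (limma adjusted p = 0.00781). The untreated call was lost without SYK-WT replicate 2 (0.0658) or either SYK-KO library (0.0811 and 0.14), and the call with EGF without SYK-WT EGF replicate 1 (0.0604) or SYK-KO EGF replicate 2 (0.0523).

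ATP5MC2 went up where ATP5MC1 went down: it rose untreated (0.26 ± 0.074, limma adjusted p = 0.0246), and with EGF its log2 difference of 0.20 did not pass (limma adjusted p = 0.063). ATP5MC1 made up 26.9% and 27.4% of the FPKM of the 3 genes in SYK-KO cells, against 33.7% and 36.8% in SYK-WT cells, and 28.1% and 26.9% in SYK-KO EGF cells, against 37.5% and 35.6% in SYK-WT EGF cells. ATP5MC2 made up 58.9% and 57.7% in SYK-KO cells, against 49.7% and 48.2% in SYK-WT cells, and 56.2% and 57.3% in SYK-KO EGF cells, against 45.5% and 47.7% in SYK-WT EGF cells. The shares of these 2 genes did not overlap between the genotypes. Those of ATP5MC3 did over the 8 libraries, with 14.3% to 15.9% in the SYK-KO and SYK-KO EGF libraries, against 15.1% to 17.0% in the SYK-WT EGF and SYK-WT libraries. ATP5F1B fell with EGF (-0.23 ± 0.058, limma adjusted p = 0.0146), as did ATP5PB, a stator subunit (-0.28), while ATP5F1A, the alpha subunit, passed in neither comparison (0.09 and 0.07). The call of ATP5PB was lost without SYK-WT EGF replicate 1 or 2 (0.0865 and 0.0517) or SYK-KO EGF replicate 1 (0.0841). ATP5IF1, which inhibits the enzyme when it runs backwards, held 283 and 272 FPKM in SYK-KO cells, against 254 and 291 FPKM in SYK-WT cells, and did not pass (0.03, 95% interval -0.16 to 0.22).

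In complex III, UQCRFS1 rose in both comparisons (0.26 and 0.23), as did UQCRQ, named after its values were seen (0.27 and 0.24). UQCRB rose untreated (0.26), and UQCR10, a small subunit, fell with EGF (-0.30). The UQCR10 call was lost without SYK-WT EGF replicate 1 or 2 (limma adjusted p = 0.086 and 0.0544) or SYK-KO EGF replicate 1 (0.0857). UQCRC1, a structural core protein of the complex, passed in neither (0.0047 and -0.05). In complex II, SDHB held 56.3 and 55.7 FPKM in SYK-KO cells, against 64.6 and 66.5 FPKM in SYK-WT cells (-0.22 ± 0.072, limma adjusted p = 0.0396), and it was lower with EGF as well (-0.25, limma adjusted p = 0.0265). The untreated SDHB call was lost under 9 of the settings, among them only the 2 groups in the fit (0.076) and the omission of either SYK-KO library (0.142 and 0.156). SDHA, the flavoprotein, and the membrane anchors SDHC and SDHD did not pass, with log2 fold changes from -0.09 to 0.18 over both comparisons.

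Of the 12 assembly factors among the members, 4 were higher and 2 lower untreated (33.3% and 16.7%, beside 20.3% and 20.2% of all loci). With EGF 1 was higher and 3 lower (8.33% and 25%, beside 21.1% and 22.5%). NDUFAF2 rose in untreated SYK-KO cells (0.51), and SDHAF2, which helps to attach the flavin to SDHA, fell in both comparisons (-0.37 and -0.26), as did NDUFAF7, a methyltransferase needed for complex I assembly (-0.32 and -0.26). Without SYK-KO replicate 1 the untreated calls of SDHAF2 (limma adjusted p = 0.0591) and NDUFAF7 (0.156) were lost, as was that of SDHAF2 with EGF without any one of the 4 EGF-treated libraries (0.0567 to 0.146). In the wider list of 52 assembly factors, which contains these 12, 47 were tested: 7 were higher and 9 lower in untreated SYK-KO cells (14.9% and 19.1%, beside 20.3% and 20.2% of all loci), and with EGF 6 were higher and 15 lower (12.8% and 31.9%, beside 21.1% and 22.5%). In the wider list the untreated shares lay near the background. LRPPRC, which stabilises mitochondrial mRNAs, held 28.9 and 30.8 FPKM in SYK-KO cells, against 43.8 and 37.8 FPKM in SYK-WT cells (-0.43). SCO1, a copper chaperone of complex IV, fell by 0.35 on the log2 scale untreated and by 0.61 with EGF, and COX15, an enzyme of haem A synthesis, by 0.37 and 0.53.

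NDUFA12 and NDUFAF2 are paralogues: NDUFAF2 occupies the place of NDUFA12 in assembling complex I and is later replaced by it. Both rose in untreated SYK-KO cells and both rose with EGF in SYK-WT cells, comparisons that share the untreated SYK-WT libraries as reference, so that they are not independent. NDUFA12 held 104 and 90.6 FPKM in SYK-KO cells, against 71.0 and 64.5 FPKM in SYK-WT cells (0.51 ± 0.10, limma adjusted p = 0.0065). NDUFAF2 held 67.9 and 59.6 FPKM in SYK-KO cells, against 49.0 and 40.1 FPKM in SYK-WT cells (0.51 ± 0.11, limma adjusted p = 0.00844). Without SYK-KO replicate 1 both untreated calls were lost (0.0548 and 0.0676). With EGF neither passed between the genotypes (0.29 and 0.26, limma adjusted p = 0.0539 and 0.0889).

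EGF itself changed few of the genes. In SYK-KO cells 0 members were higher and 1 lower after EGF, against 6.67% and 5.13% of all loci. An unadjusted p under 0.05 was found for 14 of the 86 members, a smaller share than the 3314 of all 12112 loci. NDUFAF8, a factor of complex I assembly, was the 1 member called, with 57.2 and 53.1 FPKM in SYK-KO EGF cells, against 66.4 and 66.5 FPKM in SYK-KO cells (-0.27 ± 0.065, limma adjusted p = 0.0373). This call was lost without any one of the 4 SYK-KO libraries, treated or not. It was also lost without either SYK-WT EGF library and without the mean-variance trend. The omission of either untreated SYK-WT library, which takes no part in the comparison but sets the shared spread, gave 3 higher and 9 lower, and only the 2 groups in the fit gave 2 and 10. Shares over all loci under these alternatives are not given. The fold changes in the main fit leaned downward without passing: 65 of 86 lay below 0, beside 6007 of all 12112 loci, with a median of -0.07 over the members and 0.0014 over all loci. NDUFA12 held 129.7 and 116 FPKM in SYK-KO EGF cells, against 104 and 90.6 FPKM in SYK-KO cells (0.34, limma adjusted p = 0.0781). NDUFAF2 held 80.5 and 71.9 FPKM in SYK-KO EGF cells, against 67.9 and 59.6 FPKM in SYK-KO cells (0.25, limma adjusted p = 0.182).

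In SYK-WT cells 3 members were higher and 1 lower after EGF, 3.49% and 1.16% of the 86, against 14.7% and 12.1% of all loci. An unadjusted p under 0.05 was found for 14 of the 86 members, a smaller share than the 4854 of all 12112 loci. The median log2 fold change was 0.02 over the members and 0.0077 over all loci. NDUFA12 held 108 and 93.2 FPKM in SYK-WT EGF cells, against 71.0 and 64.5 FPKM in SYK-WT cells (0.56 ± 0.10, limma adjusted p = 0.00745), and NDUFAF2 64.9 and 61.8 FPKM in SYK-WT EGF cells, against 49.0 and 40.1 FPKM in SYK-WT cells (0.50 ± 0.11, limma adjusted p = 0.0139). In both genes the groups were separate. NDUFS1 was higher (0.27, limma adjusted p = 0.0463) and NDUFB10, a membrane-arm subunit, lower (-0.29, limma adjusted p = 0.034). All 4 calls were lost without SYK-WT EGF replicate 1 (limma adjusted p from 0.0615 for NDUFA12 and 0.0897 for NDUFAF2 to 0.192), and without SYK-WT EGF replicate 2 the calls of NDUFAF2 (0.0635), NDUFB10 (0.164) and NDUFS1 (0.155) were lost. The calls of NDUFB10 and NDUFS1 ended under 9 and 11 of the alternative settings. Without SYK-WT replicate 1 the counts were 7 higher and 13 lower, and without SYK-WT replicate 2 they were 6 and 0. Shares over all loci without these libraries are not given. NDUFA12 (q = 0.00318) and NDUFAF2 (q = 0.021) were the 2 of 86 members with q under 0.05 in the authors' deposited table, a smaller share than the 15.2% of all loci.

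**Figure D5:**
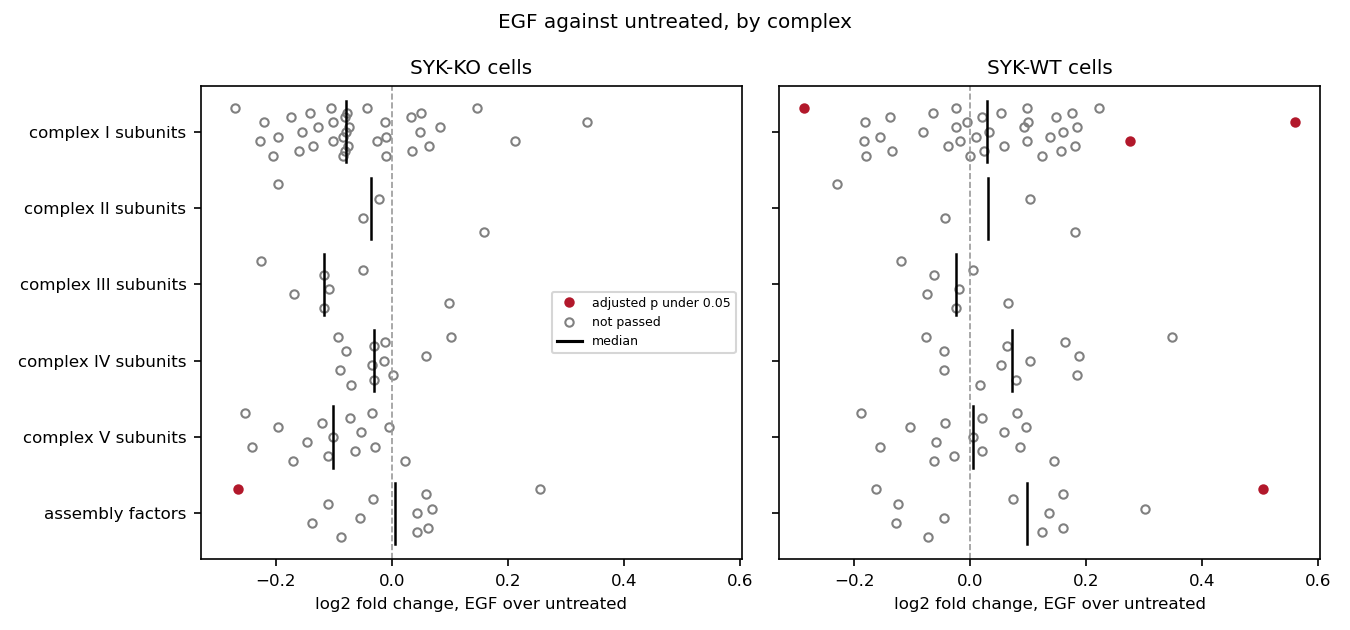
Log2 fold change of EGF over untreated cells on the log2(FPKM + 1) scale (x axis) for the 86 tested genes by complex (y axis), in SYK-KO cells on the left and in SYK-WT cells on the right. Filled points have a limma adjusted p under 0.05 and bars are medians. In SYK-KO cells 65 of 86 points lie below 0, and in SYK-WT cells 36 do, with NDUFA12 at 0.56 and NDUFAF2 at 0.50.

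The EGF responses of the genotypes were not shown to differ for any of the genes. The difference between the response in SYK-KO and that in SYK-WT cells passed for 0 of 86 members and for 0.00826% of all loci (1 locus). An unadjusted p under 0.05 was found for 4 of the 86 members, a smaller share than the 1070 of all 12112 loci. These members were COX7A1 (-0.42), NDUFAF1 (-0.39), SDHAF4 (-0.26) and NDUFB2 (-0.25), of which the last 3 were named after their values were seen. The difference was below 0 for 75 of 86 members and 6336 of all 12112 loci, with a median of -0.09 over the members and -0.0095 over all loci. It was below 0 for 56 of 73 mitochondrial ribosomal protein genes (median -0.11) and for 27 of 75 cytosolic ones (median 0.01), so that the lean was not particular to the members. It was -0.22 ± 0.15 for NDUFA12 and -0.25 ± 0.16 for NDUFAF2 (limma adjusted p = 0.699 and 0.683).

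The promoters of the members were searched for motifs of factors known to control nuclear genes of the respiratory chain. NRF1 binds a palindrome of the half-sites GCGCA and TGCGC directly joined (the strict NRF1 motif). It was also searched with any base allowed in place of the T (the loose form, which contains the strict one), and GABPA and other ETS factors bind CCGGAAG. The windows run from 250 bases before to 50 after the start of transcription and were read on both strands, from RefSeq on GRCh38.p14, where 78 of the members had 96 promoters. The strict NRF1 motif was present in 5.21% of member promoters and 1.24% of all 35093, the loose form in 19.8% and 5.79%, and CCGGAAG in 27.1% and 10.3%. Among promoters of members higher in untreated SYK-KO cells (41) the shares were 17.1% for the loose NRF1 motif and 17.1% for CCGGAAG, and among those of members not called (44) they were 27.3% and 34.1%. A match describes letters only. The promoters below belong to named members that rose in untreated SYK-KO cells. They were picked after the values and matches were seen and do not stand for all members. Capitals mark a match, here the loose NRF1 motif in NDUFA12 (chr12:95003648-95003947, minus strand) and CCGGAAG, read as CTTCCGG from the other strand, in NDUFA1 (chrX:119871582-119871881), COX6B1 (chr19:35648073-35648372) and ATP5MG (chr11:118401356-118401655). The window of NDUFAF2 (chr5:60944955-60945254) holds neither, and beside that of its paralogue NDUFA12 it shows what the pair with parallel changes carries in this stretch.
NDUFA12: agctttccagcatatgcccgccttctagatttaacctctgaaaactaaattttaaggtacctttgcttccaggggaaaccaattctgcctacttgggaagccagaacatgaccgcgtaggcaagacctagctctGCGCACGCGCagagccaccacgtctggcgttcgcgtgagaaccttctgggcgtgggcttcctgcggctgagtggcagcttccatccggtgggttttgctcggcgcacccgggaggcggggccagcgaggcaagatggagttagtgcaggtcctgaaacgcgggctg
NDUFAF2: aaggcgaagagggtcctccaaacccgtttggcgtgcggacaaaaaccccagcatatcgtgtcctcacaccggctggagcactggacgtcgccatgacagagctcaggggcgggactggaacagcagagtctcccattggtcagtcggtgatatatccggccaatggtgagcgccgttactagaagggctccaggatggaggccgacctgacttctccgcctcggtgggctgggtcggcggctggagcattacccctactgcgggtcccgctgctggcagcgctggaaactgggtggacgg
NDUFA1: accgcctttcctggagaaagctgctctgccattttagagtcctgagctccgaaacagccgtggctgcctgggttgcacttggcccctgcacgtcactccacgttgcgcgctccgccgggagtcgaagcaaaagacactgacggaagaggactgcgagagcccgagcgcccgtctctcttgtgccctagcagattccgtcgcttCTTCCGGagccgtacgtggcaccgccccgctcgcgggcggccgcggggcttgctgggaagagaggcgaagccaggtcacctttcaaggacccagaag
COX6B1: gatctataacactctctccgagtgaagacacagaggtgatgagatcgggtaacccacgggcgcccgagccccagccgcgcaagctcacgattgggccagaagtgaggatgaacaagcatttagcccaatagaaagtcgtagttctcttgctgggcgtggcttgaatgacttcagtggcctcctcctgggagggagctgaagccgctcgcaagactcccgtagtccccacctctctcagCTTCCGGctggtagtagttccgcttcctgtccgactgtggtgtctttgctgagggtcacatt
ATP5MG: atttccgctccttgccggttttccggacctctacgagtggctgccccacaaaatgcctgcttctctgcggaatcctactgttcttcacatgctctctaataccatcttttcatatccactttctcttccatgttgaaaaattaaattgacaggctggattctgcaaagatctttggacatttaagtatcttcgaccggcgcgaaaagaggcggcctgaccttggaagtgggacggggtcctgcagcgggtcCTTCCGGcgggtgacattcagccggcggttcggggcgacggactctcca

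Other genes of the pathway were counted in the same way. Over all loci 20.3% were higher and 20.2% lower untreated, and 21.1% and 22.5% with EGF, and in lists this small a few genes set the share. Of 13 tested regulators of mitochondrial biogenesis, 0 were higher and 5 lower (38.5%) in untreated SYK-KO cells, and 0 were higher and 4 lower (30.8%) with EGF. MYC, a transcription factor, held 78.9 and 79.8 FPKM in SYK-KO cells, against 118 and 111 FPKM in SYK-WT cells (-0.53), and 76.2 and 74.7 FPKM in SYK-KO EGF cells, against 133 and 128 FPKM in SYK-WT EGF cells (-0.78). The coactivator PPRC1 (-0.46 and -0.41), the nuclear receptor ESRRA (-0.34 and -0.39) and TWNK, the helicase of mitochondrial DNA (-0.37 and -0.69), were lower in both comparisons, and TFAM, which packs mitochondrial DNA and was named after its values were seen, untreated (-0.33). PPARGC1A was listed at or near 0 in all libraries. Of 17 genes of electron carriers and coenzyme Q synthesis, 1 was higher and 5 lower (29.4%) untreated and 2 were higher and 6 lower (35.3%) with EGF. COQ8A, an atypical kinase of coenzyme Q synthesis, held 6.66 and 6.75 FPKM in SYK-KO cells, against 11.5 and 10.7 FPKM in SYK-WT cells (-0.65), and ETFA and ETFB, which pass electrons from fatty acid oxidation, were lower too (-0.24 and -0.29). Of 6 tested carriers of nucleotides and phosphate, 3 were higher and 0 lower in each comparison: SLC25A5, an ADP/ATP carrier (0.24 and 0.32), SLC25A3, the phosphate carrier (0.32 and 0.22), and the outer-membrane channel VDAC2 (0.40 and 0.31). In the citrate cycle and pyruvate dehydrogenase, 5 of 16 were higher and 3 lower untreated (31.2% and 18.8%), and 4 were higher and 4 lower with EGF (25% each), near the shares over all loci.

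Ribosomal protein genes, which also give short and abundant transcripts, were set beside the members. Of 75 cytosolic ribosomal protein genes 13 were higher and 5 lower in untreated SYK-KO cells, and 16 and 4 with EGF. Of 73 mitochondrial ribosomal protein genes 10 were higher and 6 lower untreated, and 5 and 16 with EGF. Over all loci 20.3% were higher and 20.2% lower untreated, and 21.1% and 22.5% with EGF. The median log2 fold changes of the cytosolic and mitochondrial ribosomal protein genes were 0.07 and 0.04 untreated, beside 0.16 for the members, and 0.06 and -0.07 with EGF, beside 0.08 for the members. Transcript length moved with the difference: the 47 tested members with transcripts of up to 1000 bases had a median log2 fold change of 0.22 in untreated SYK-KO cells and the 38 longer ones 0.09, while over all loci the medians were 0.08 (952 loci) and -0.02 (10900 loci). The part of length in the result was not tested. The ribosomal RNAs of the mitochondrion, MT-RNR1 and MT-RNR2, passed in no comparison.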

How the data were processed

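RNA was sequenced from 8 libraries of OVISE cells. The authors deposited expression values in FPKM per locus with Cuffdiff q-values for their own comparisons, and the submitters' processing notes name TopHat, Cufflinks, Cuffdiff 2.2.1.3 and hg19. How FPKM were scaled and whether reads were counted by strand is not given in the sources used here. Depth was estimated from the steps of low FPKM values and holds only if each library was scaled by its own fragments, and no count test was run. The deposited p-values and q-values were used only where the authors' deposited table is named.

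Symbols were given to 27541 of 27757 loci (99.2%), 27222 from RefSeq and 319 from GENCODE. 6 loci merged with other symbols, 1 of them holding a pseudogene, and 9 pseudogene, antisense or divergent loci were left out of the 93 members. Of the members, 21 share a listed locus with other rows. Tests used log2(FPKM + 1) of the loci that reached 1 FPKM in 2 libraries or more, with limma 3.58.1 (R 4.3.3, mean-variance trend), as 4 group means sharing 1 spread, two-sided, with Benjamini-Hochberg adjustment over 12112 loci and a threshold of 0.05. A log2 fold change on this scale understates the change of low genes. The code was first tested on simulated data. In each comparison up to 8 highest and 8 lowest called members were named, with the highest and lowest subunit of each complex, a list of isoforms and core subunits, and up to 4 genes of every other list. The members and lists were chosen with earlier results of these data known, and the core and supernumerary roles, the length split, the isoform shares and the genes plotted were chosen after the values were seen. Alternatives were the pseudocount, the filter, the scaling, the trend, only the 2 groups compared, the replicate number as a block and each library left out. Members outside the naming rule are counted but mostly not reported singly, and the plot of levels by gene leaves out 1 member, which is not reported here.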

Additional observations from a re-analysis of the deposited data

How the results depend on the processing

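No called result changed direction. The median log2 fold change of the members for EGF in SYK-WT cells, which has no test, ran between -0.0040 and 0.07 over the settings. Counts of members are given as higher and lower. Shares over all loci under the same settings are not given, so a shift of the members cannot be told apart from a shift of all loci. With only the 2 groups in the fit they were 2 and 10 for EGF in SYK-KO cells, 2 and 0 for EGF in SYK-WT cells, 16 and 2 for SYK-KO against SYK-WT untreated and 31 and 15 with EGF; the difference of the EGF responses uses all groups and has no such value. Without a filter they were 2 and 0 for EGF in SYK-WT cells, 32 and 4 untreated and 18 and 12 with EGF. Without a mean-variance trend 0 were lower for EGF in SYK-KO cells, and with equalised library medians 2 were higher for EGF in SYK-WT cells. Leaving out 1 library at a time gave 0 to 3 higher and 0 to 9 lower for EGF in SYK-KO cells, 0 to 7 and 0 to 13 for EGF in SYK-WT cells, 11 to 42 and 1 to 8 for SYK-KO untreated, 8 to 31 and 2 to 15 with EGF, and 0 to 1 and 0 to 0 for the difference. The cause of these shifts was not tested. A pair of libraries a group limits them all. Replicate numbers did not pair the libraries: deviations of same-numbered libraries correlated between -0.381 and 0.270 (6 pairs of groups). With the replicate number as a block the counts were 2 and 2 for EGF in SYK-KO cells, 4 and 2 for EGF in SYK-WT cells, 38 and 7 untreated and 26 and 15 with EGF. COX7A1, NDUFC1, NDUFA1, ATP5MG, COX6B1 and NDUFS1 kept their calls in both SYK-KO comparisons under every setting run.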
